A study of Mus musculus with 16 samples.

Results

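AP-1 is the collective name for dimers of the FOS and JUN families of basic leucine zipper (bZIP) transcription factors. The genes described here are Fos, Fosb, Fosl2, Jun, Junb and Jund, together with Atf3 and Batf, whose products pair with JUN proteins. All 8 were found by gene symbol in the platform annotation, in which 18193 genes are named in all. They are read by 11 of the 45037 probe sets other than controls, with a pair of probe sets each for Fosl2, Jun and Jund.

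The measurements came from 16 Affymetrix mouse arrays in 3 groups of C57BL/6 background. The nontransgenic B cells (n = 5) and the Eμ-xbp-1s B cells (n = 5) were B220+ cells of the spleens of 20-week-old mice, taken with magnetic beads. Eμ-xbp-1s mice carry the cDNA of the spliced form of mouse Xbp1, a transcription factor of the unfolded protein response, under an immunoglobulin VH promoter and the Eμ enhancer, with eGFP behind it. Eμ-xbp-1s MM (n = 6) was myeloma tissue of Eμ-xbp-1s mice, with no cell selection named for it. No age is given for the individual MM samples. The paper places frank MM later in life than the age of the B cell mice. Where MM is compared with B cells, age and cell selection differ along with the group, and their part was not tested. The Eμ enhancer is also active in some T cells, 2 founder lines were kept, and the sources used here do not say which of them gave each array. They also do not say that each MM array came from a separate mouse, so p-values of MM measure the spread between these samples.

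FOS proteins bind DNA only as a partner of a JUN protein, whereas JUN proteins can also pair with each other. AP-1 dimers bind the sequence TGACTCA and its relatives. Fos, Fosb, Jun, Junb and Atf3 are immediate early genes, whose transcripts appear within minutes of a stimulus through MAP kinases and serum response factor, and also while tissue is being taken apart into single cells. Jund is transcribed more steadily. BATF has no activation domain and acts in lymphocytes as a BATF-JUN dimer beside IRF4 or IRF8.

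Values are deposited intensities on a linear scale. The median intensity of an array lay between 69 and 82.9, and between 39.1% and 44.7% of its probe sets were above 100. For the tests, values under 50 were set to 50, a probe set was kept where over 20% of the arrays in a comparison exceeded 100, and limma was run on log2 values with Benjamini-Hochberg adjustment over all probe sets tested and a threshold of 0.01. Changes between the B cell groups are those of Eμ-xbp-1s relative to nontransgenic B cells. Precision is limited by how many arrays there are. Xbp1 itself was 1802 to 2452 in nontransgenic B cells, 2040.2 to 3108 in Eμ-xbp-1s B cells and 1477 to 4979 in MM. Whether its probe set also reads the transgene was not analysed.

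The cell makeup of the samples differed. The summed intensity of 9 T cell markers was 800.3 to 906.5 in nontransgenic B cells and 6484 to 8022 in Eμ-xbp-1s B cells, and that of 10 neutrophil markers was 800.1 to 1581 and 9691 to 30327. In MM replicates 4 and 5 the neutrophil sum was 70918 and 49292, against 690.2 to 1739 in the other 4 MM samples, and the sum of 9 mature B cell markers was 799.1 to 2201, against 8102 to 15702. The sum of 5 erythroid markers was 13918 and 19309 in MM replicates 4 and 5 and 125.6 to 228.3 in the other 4. The sums of erythroid, NK cell and macrophage markers also separated the B cell groups without overlap, at 156.3 to 338.2 and 766.8 to 8123, at 874.3 to 1227 and 3619 to 4951, and at 2860 to 4443 and 7124 to 12684, each higher with the transgene. The sum of 9 plasma cell markers was 11288 to 12764 in nontransgenic B cells and 10664 to 15606 in Eμ-xbp-1s B cells. In MM it was 3796 to 16510, a range that held those of both B cell groups. Of the plasma cell markers tested in MM over nontransgenic B cells, 0 rose and 1 fell by limma, against 4.66% and 4.76% of all genes tested. The share of plasma cells in each MM sample was not tested. In bulk RNA such as this, fewer cells of a type and less RNA per cell cannot be told apart.

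The DNA just before the start of Fos, Fosb and Jun is shown because Fos, Fosb and Jun 1417409_at had the most negative log2 fold changes between the B cell groups, passed or not, and because AP-1 and CREB factors are known to act on the Fos and Jun promoters. The sequences are RefSeq's, on build GRCm38.p6, 250 bases up to the base before the start in RefSeq's promoter table, which for Fosb lies inside the annotated span of the gene, with matches to TGACG or TGACATCA in capitals. Fos lies on the plus strand at chr12:85473640-85473889, and Fosb at chr7:19310046-19310295 and Jun at chr4:95052223-95052472 lie on the minus strand.
Fos: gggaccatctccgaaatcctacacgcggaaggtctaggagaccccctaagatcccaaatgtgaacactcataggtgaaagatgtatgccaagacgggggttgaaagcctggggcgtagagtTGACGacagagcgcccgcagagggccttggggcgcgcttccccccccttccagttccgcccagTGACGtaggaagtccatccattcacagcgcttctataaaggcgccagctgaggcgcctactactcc
Fosb: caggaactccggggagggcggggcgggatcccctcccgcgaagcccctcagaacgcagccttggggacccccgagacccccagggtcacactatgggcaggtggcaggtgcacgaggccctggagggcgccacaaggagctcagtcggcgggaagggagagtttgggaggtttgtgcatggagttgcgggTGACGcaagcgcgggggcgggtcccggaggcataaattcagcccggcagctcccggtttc
Jun: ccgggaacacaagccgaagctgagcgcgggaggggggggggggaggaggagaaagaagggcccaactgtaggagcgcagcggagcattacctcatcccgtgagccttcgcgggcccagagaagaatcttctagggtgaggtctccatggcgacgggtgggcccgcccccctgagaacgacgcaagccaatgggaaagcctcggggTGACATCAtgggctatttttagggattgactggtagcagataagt

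Both strands were searched. The letters TGACG, the shorter part of the cAMP response element TGACGTCA, stood in the window of 5 of the 8 genes (Fos, Fosb, Junb, Atf3 and Batf) and in 17.8% of all 32851 windows of this length. In Fos they stood 129 to 125 and 66 to 62 bases before the start, followed by TATAAA at 33 to 28 bases, a motif in 12.4% of all windows and in 1 of the 8. Fosb had TGACG 60 to 56 bases before the start used for its window. Jun had TGACATCA 45 to 38 bases before its start, which was found in 1 of the 8 genes and in 2.93% of all windows. No match to TGACTCA (4.46% of all windows), to TGACGTCA (1.55%) or to a CArG box, the site of serum response factor (1.47%), was in the window of any of the 8. Sequence more than 250 bases before the start was not searched, so sites further away could not be seen. A match is a description of letters and not of binding.

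Fos (chr12:85473890-85477274), the founding member of its family, was high in 4 nontransgenic arrays and lower in most others. In nontransgenic B cells its intensity was 1245, 264, 1375, 1507 and 1097. In Eμ-xbp-1s B cells it was 161, 142, 102, 209.6 and 706. The groups overlapped only through nontransgenic replicate 2 and Eμ-xbp-1s replicate 5, each of which stood nearer to the other group. The means were 1098 ± 490.2 and 264 ± 250.2 (SD, n = 5 each), and the log2 fold change of -2.22 (standard error 0.56) did not pass limma's threshold (adjusted p = 0.0337). Without nontransgenic replicate 2 it passed at -2.68 (limma, adjusted p = 0.00540), and without Eμ-xbp-1s replicate 5 at -2.67 (0.00678). Leaving out the array nearest the other group widens the difference by construction. Over all repeats of this test, 17 kept their side of the threshold and 5 newly passed.

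In MM, Fos ran from 54.0 to 756 with a median of 109. Replicates 4 and 5 stood at 539 and 756 and the other 4 between 54.0 and 146. The MM mean was 273 ± 299.7 (SD, n = 6), and the test against Eμ-xbp-1s B cells gave a log2 fold change of -0.35 (standard error 0.73, limma adjusted p = 0.80). Against nontransgenic B cells it was -2.56 (standard error 0.73, adjusted p = 0.0263), which did not pass, and without replicate 5 alone it was -3.01 and passed (limma, adjusted p = 0.00781). Without replicates 4 and 5 the other MM samples averaged 85.8 ± 41.0 (SD, n = 4), and the change of -3.56 against nontransgenic B cells passed (limma, adjusted p = 0.000998). Replicates 4 and 5 were the MM samples highest in Fos, so leaving them out widens this difference by construction. Nontransgenic B cells thus had the highest mean, and the order of MM and Eμ-xbp-1s B cells, which differed by less than their spread, was not the same for mean intensity and mean log2 value.

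Fosb (chr7:19302696-19310118), a close relative of Fos that is induced with it, was also lowest in nontransgenic replicate 2. Its intensity was 134, 59.3, 242, 209 and 178 in nontransgenic B cells. In Eμ-xbp-1s B cells it was 66.4, 77.2, 81.2, 63.3 and 81.9, below 4 of the 5 nontransgenic arrays and above replicate 2. The means were 164 ± 70.9 and 74.0 ± 8.62 (SD, n = 5 each), a log2 fold change of -1.01 (standard error 0.32, limma adjusted p = 0.0849) that did not pass, and without nontransgenic replicate 2 it was -1.34 and passed (adjusted p = 0.00129). In MM, Fosb was 76.3 to 113 with a median of 94.7. MM replicates 4 and 5, high in Fos, were at the opposite ends for Fosb, at 76.3 and 113. MM over nontransgenic B cells gave -0.66 (standard error 0.31, limma adjusted p = 0.147), or -0.99 without nontransgenic replicate 2, which passed (adjusted p = 0.00731). Nontransgenic replicate 2 was the lowest of its group, so leaving it out widens both differences by construction. MM over Eμ-xbp-1s B cells was not tested, because too few arrays were above 100.

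Fosl2 (chr5:32136472-32157840), which encodes Fra-2, gave different answers from its probe sets. The brighter by mean, 1437247_at, was 20.6, 28.1, 19.2, 14.6 and 18.0 in nontransgenic B cells, where every array lay under 50. It was 97.4, 104, 149.7, 159.8 and 115 in Eμ-xbp-1s B cells, with no overlap. The means were 20.1 ± 4.99 and 125 ± 28.0 (SD, n = 5 each), and the signal of this probe set rose at least 2.45-fold against the floor of 50 (log2 fold change at least 1.29, standard error 0.15, limma adjusted p = 0.000204). With all 5 nontransgenic values set to 50, that group added no spread to the standard error, so the p-value is smaller for it. The probe set entered this test only through the transgenic arrays, where it was high. The call was lost with a floor of 100 (log2 fold change 0.30, adjusted p = 0.262) and in a single fit of all 3 groups (adjusted p = 0.32). Between the same groups 9 of 9 T cell markers and 7 of 9 neutrophil markers tested rose, against 3.28% of all genes tested. Many of these markers entered the tests only through the transgenic arrays, where they were high. The marker sums did not overlap either, as those of erythroid, NK cell and macrophage markers did not. The part of these cells in the Fosl2 values was not tested.

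In MM, 1437247_at ran from 64.6 to 699.6 with a median of 96.9. Replicates 4 and 5 stood at 699.6 and 452, and the other 4 samples at 84.1 ± 19.8 (SD, n = 4), all of them above every nontransgenic array. The change against nontransgenic B cells was at least 1.64 (standard error 0.58, limma adjusted p = 0.0605), and it passed with a floor of 16 (2.97, adjusted p = 0.00489). Fosl2 1437247_at entered both of these tests only through the MM arrays, where it was high. Against Eμ-xbp-1s B cells it was 0.35 (standard error 0.59, limma adjusted p = 0.741), and -0.57 without replicates 4 and 5. The other probe set, 1422931_at, lay between 126 and 151 in nontransgenic B cells, between 85.4 and 148 in Eμ-xbp-1s B cells and between 118 and 166 in MM, with log2 fold changes of -0.28 between the B cell groups, 0.42 in MM over Eμ-xbp-1s B cells and 0.14 in MM over nontransgenic B cells (limma adjusted p = 0.408, 0.178 and 0.479). Across the 16 arrays the log2 values of this pair of Fosl2 probe sets correlated at -0.01. Where in the transcripts each one lies was not analysed here.

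**Figure D1:**
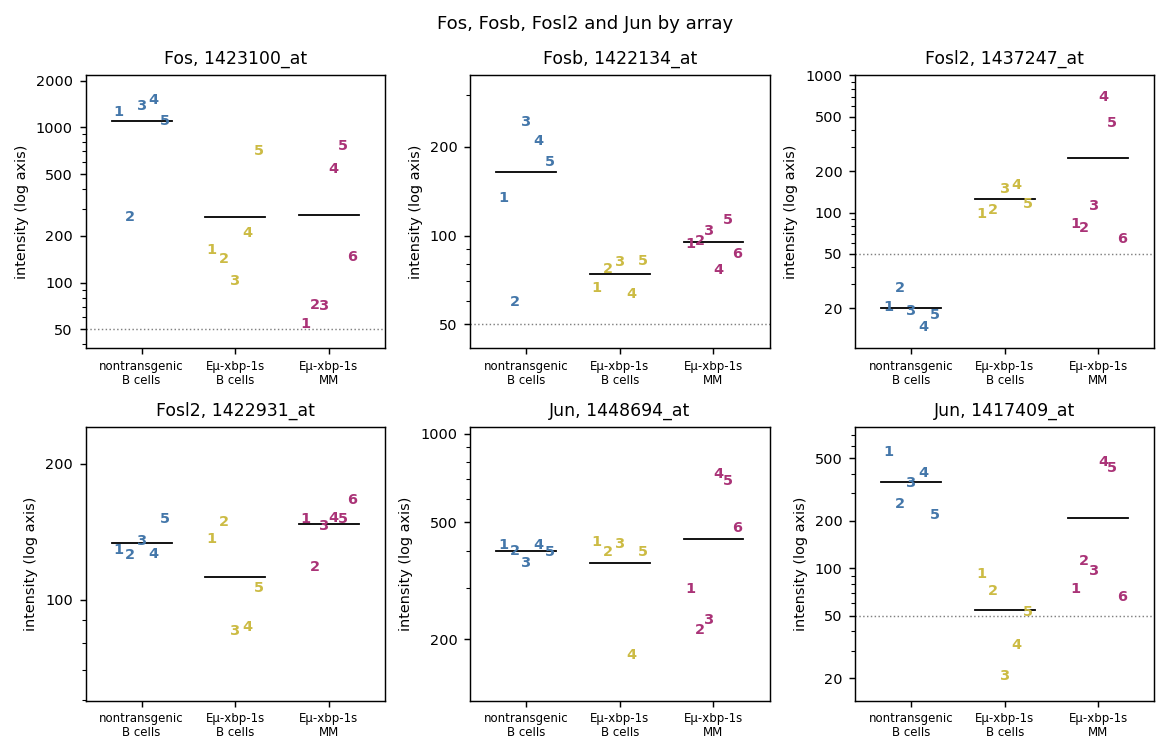
Intensity (log axis) of Fos, Fosb and both probe sets of Fosl2 and Jun on each array. Digits are replicate numbers, black lines group means, and the dotted line the floor of 50. Nontransgenic replicate 2 is the lowest nontransgenic array in Fos and Fosb, and MM replicates 4 and 5 stand above the other MM samples in Fos, in Fosl2 1437247_at and in both Jun panels.

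Jun (chr4:95049036-95052222), the partner of FOS proteins and of BATF, also gave different answers. Probe set 1417409_at was 547, 257, 347, 404 and 217 in nontransgenic B cells. It was 91.8, 71.6, 20.6, 32.8 and 53.1 in Eμ-xbp-1s B cells, below every nontransgenic array. The means were 355 ± 130.2 and 54.0 ± 28.7 (SD, n = 5 each), and with 2 of the 5 transgenic arrays under the floor the signal of this probe set fell by 2.45 on the log2 scale (5.48-fold, standard error 0.26, limma adjusted p = 8.97e-05). It entered this test only through the nontransgenic arrays. The part of the differing cell makeup in this fall was not tested. In a single fit of all 3 groups the adjusted p was 0.0121.

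The brighter probe set of Jun, 1448694_at, was 418, 400.3, 364, 420.3 and 396 in nontransgenic B cells. In Eμ-xbp-1s B cells it was 428, 396, 423, 177 and 396, inside the nontransgenic range or next to it apart from replicate 4. Its means were 399.8 ± 22.7 and 364 ± 106 (SD, n = 5 each), with a log2 fold change of -0.20 (standard error 0.22, limma adjusted p = 0.673). The mean of the pair gave -1.33 (limma, adjusted p = 0.00103). Over the 16 arrays the log2 values of this pair correlated at 0.52.

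In MM both Jun probe sets were highest in replicates 4 and 5. Probe set 1417409_at was 477 and 433 there and 65.7 to 111 in the other 4 samples, with a group median of 104. Probe set 1448694_at was 729 and 691 there and 215 to 477 in the other 4, with a group median of 387. For 1417409_at the change was 1.27 against Eμ-xbp-1s B cells (standard error 0.52, limma adjusted p = 0.140), a test it entered only through the MM arrays. Against nontransgenic B cells it was -1.18 (standard error 0.54, adjusted p = 0.138), and without replicates 4 and 5 it was -1.99 and passed (limma, adjusted p = 0.000961). Leaving out these highest MM samples widens that difference by construction. For 1448694_at the changes were 0.17 and -0.03 (limma, adjusted p = 0.805 and 0.958), and without replicates 4 and 5 they were -0.26 and -0.46 (limma, adjusted p = 0.668 and 0.181).

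Junb (chr8:84976909-84978748), an immediate early gene that can oppose JUN, overlapped between all 3 groups. It was 646, 445, 702, 737 and 625 in nontransgenic B cells. It was 732, 558, 396, 521 and 527 in Eμ-xbp-1s B cells. In MM it ran from 169 to 846 with a median of 587, and replicate 6 was the sample at 169. The log2 fold changes were -0.21 between the B cell groups, -0.06 in MM over Eμ-xbp-1s B cells and -0.28 in MM over nontransgenic B cells (limma, adjusted p = 0.576, 0.927 and 0.605).

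Jund (chr8:70697739-70700616), the JUN gene known for steady transcription, was 3966, 3698, 4512, 4110.1 and 4448 in nontransgenic B cells by probe set 1449117_at. It was 3348, 3383, 3745, 3179.6 and 3667 in Eμ-xbp-1s B cells, where only replicate 3 reached the nontransgenic range. The means of 4147 ± 339 and 3464 ± 235 (SD, n = 5 each) gave a log2 fold change of -0.26 (standard error 0.11, limma adjusted p = 0.223), which did not pass. In MM it ran from 2415 to 6905 with a median of 3540, and replicates 4 and 5 were again the highest, at 6852 and 6905, with changes of 0.18 against Eμ-xbp-1s B cells and -0.08 against nontransgenic B cells (limma, adjusted p = 0.737 and 0.868). The other Jund probe set, 1440265_at, stayed between 43.3 and 86.4 on all 16 arrays and was not tested.

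Atf3 (chr1:191170296-191183333), a stress-induced factor, lay under the floor of 50 on all 5 nontransgenic arrays, at 35.8 to 45.3. In Eμ-xbp-1s B cells it was 60.1, 59.3, 39.8, 72.2 and 70.9. In MM it ran from 37.6 to 199 with a median of 71.7, and only replicates 4 (199) and 5 (165) were above 100. With so few arrays above 100 it was not tested in any comparison.

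Batf (chr12:85686720-85709087), which lymphocytes use for class switching and for T helper cell fates, was 179, 214, 218, 273 and 233 in nontransgenic B cells. It was 359, 319, 267, 156 and 279.6 in Eμ-xbp-1s B cells, 3 of them above every nontransgenic array. In MM it ran from 167 to 630.1 with a median of 222, and it was high in replicate 1 and not in replicates 4 and 5. The log2 fold changes of 0.26, -0.01 and 0.25, in the order used for Junb, did not pass (limma, adjusted p = 0.543, 0.987 and 0.578).

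**Figure D2:**
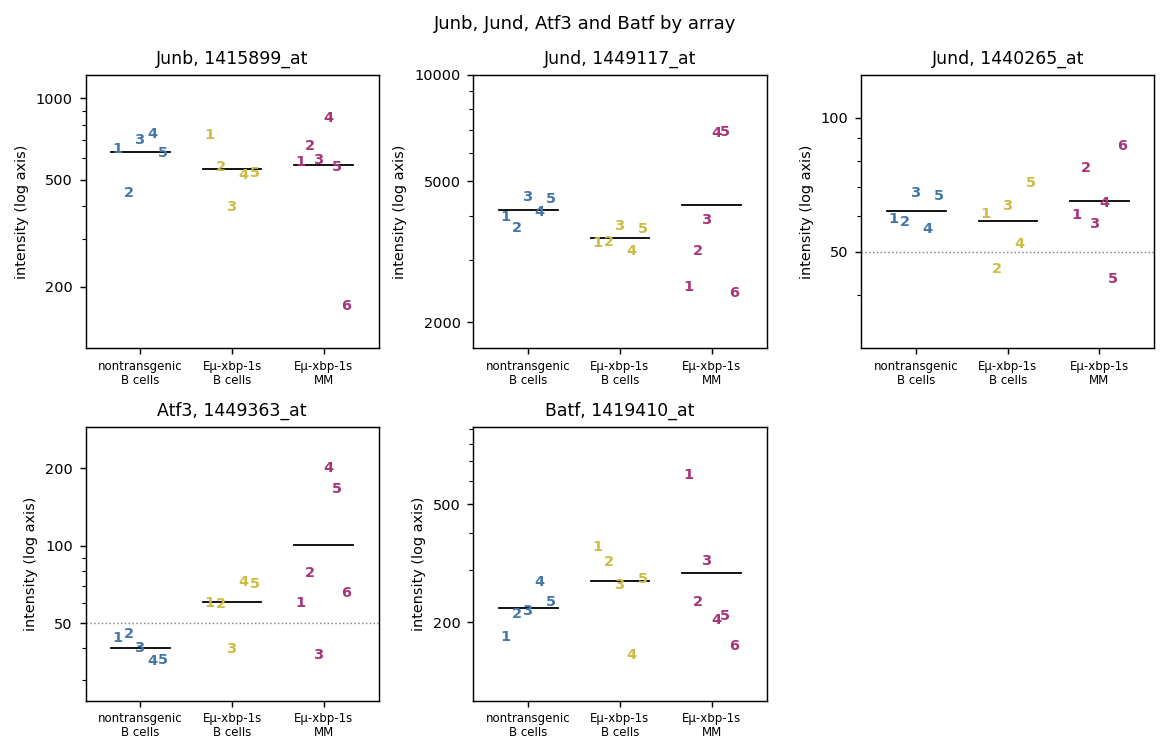
Intensity (log axis) of Junb, both probe sets of Jund, Atf3 and Batf on each array. Digits are replicate numbers, black lines group means, and the dotted line the floor of 50. MM replicates 4 and 5 are the highest samples for Jund 1449117_at and Atf3, whereas MM replicate 1 is the highest for Batf and MM replicate 6 the lowest for Junb.

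Counted by gene through the brightest probe set, 7 of the 8 were tested between the B cell groups, and Atf3 was too low. Fosl2 was the 1 that rose and 0 fell by limma, against 3.28% of all genes tested that rose and 0.192% that fell. Fosl2 1437247_at entered the test only through the transgenic arrays, where it was high, and Fosb and Jun 1417409_at only through the nontransgenic arrays, since no transgenic array exceeded 100 for either. At an unadjusted p under 0.05, 1 was higher and 3 were lower. Counted by probe set, 9 of the 11 were tested and 1 rose (Fosl2) and 1 fell (Jun 1417409_at), against 2.75% and 0.481% of all probe sets. The median log2 fold change of the 7 genes was -0.21 and that of all genes tested was -0.02.

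In MM over Eμ-xbp-1s B cells 6 genes and 8 probe sets were tested, and 0 passed in either direction by limma. Of all genes tested 1.49% rose and 1.67% fell, and of all probe sets 1.28% and 1.91%. At an unadjusted p under 0.05, 0 of the genes and 2 of the probe sets, both higher, were found (Fosl2 1422931_at and Jun 1417409_at). Jun 1417409_at entered this comparison only through the MM arrays. The median of the 6 genes was 0.08 and that of all genes tested was 0.01.

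For MM over nontransgenic B cells, 7 genes and 9 probe sets were tested, and 0 passed in either direction by limma, although 4.66% of all genes rose and 4.76% fell, and 3.95% and 5.65% of all probe sets. At an unadjusted p under 0.05, 1 gene was higher (Fosl2, which entered this test only through the MM arrays) and 1 was lower (Fos). The median of the 7 genes was -0.08, against 0.01 for all genes tested. The comparisons share groups of samples, so their values are not independent of each other.

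**Figure D3:**
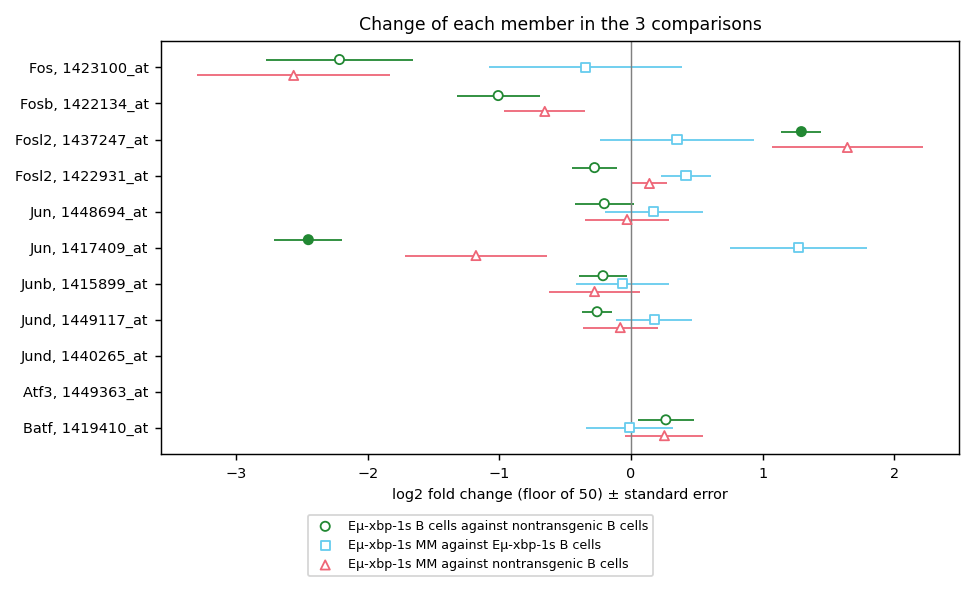
Log2 fold change (horizontal axis, floor of 50) of each probe set of the 8 genes, with its standard error as a bar, in the 3 comparisons. Filled markers passed limma at an adjusted p under 0.01, which Fosl2 1437247_at and Jun 1417409_at did between the B cell groups, and rows without a marker were not tested.

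The genes did not all vary together. Over the 16 arrays, which share 3 groups and a few samples of differing makeup, the log2 values of Fos correlated at 0.63 with those of Fosb, at 0.72 with Jun 1417409_at, at 0.60 with Jund 1449117_at and at -0.08 with Fosl2 1437247_at. Deviations from the group means gave 0.92 between Fosl2 1437247_at and Jund 1449117_at, 0.88 between Fosl2 1437247_at and Atf3, and 0.83 between Fosl2 1437247_at and Jun 1417409_at. By this measure Fos correlated at 0.77 with Atf3, 0.70 with Jund 1449117_at, 0.68 with Jun 1417409_at and 0.66 with Fosl2 1437247_at. MM replicates 4 and 5 were the highest MM samples for all of these probe sets. Nontransgenic values of Fosl2 1437247_at and Atf3 were all at the floor. The part of these samples in the correlations was not tested. Fosb, high where Fos was high across groups, had a deviation correlation of only 0.40 with Fos.

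Among 11058 other genes, those most like Fos over the 16 arrays were Irak2 (Pearson r 0.82), a kinase of interleukin-1 receptor signalling, and Rhbdf2 (0.82). Irak2 was 319 to 368 in nontransgenic B cells, 219 to 278 in Eμ-xbp-1s B cells and 185 to 272 in MM, and so differed far less between groups than Fos. The genes most like Jun 1417409_at were Slc16a6 (0.79) and Dennd4a (0.78), and Trabd (0.82) was most like Jun 1448694_at. By deviations from group means, Jun 1417409_at was closest to Gp5 (0.95), and Ppp1r15a (0.93), a phosphatase regulator of the stress response, was among its 5 nearest genes. Ppp1r15a stood at 2361 and 3794 in MM replicates 4 and 5 and at 121 to 462 on the other 14 arrays.

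Of 14 other genes of the FOS, JUN, ATF, JDP and BATF families, 13 were on the array and 11 were tested between the B cell groups. There 2 rose and 0 fell, against 3.28% and 0.192% of all genes tested. Jdp2, whose product pairs with JUN proteins and represses AP-1 targets, was 76.7, 116, 127, 121 and 93.0 in nontransgenic B cells. It was 229, 215, 190.0, 276 and 264 in Eμ-xbp-1s B cells and 488 to 1108 in MM, so that no group overlapped another. Jdp2 rose in all 3 comparisons, by 1.15 between the B cell groups, 1.39 in MM over Eμ-xbp-1s B cells and 2.54 in MM over nontransgenic B cells on the log2 scale (limma, adjusted p = 0.00119, 0.00297 and 2.53e-05). Batf3, a relative of Batf needed by a class of dendritic cells, was 67.2 to 91.2 in nontransgenic B cells, 125 to 245 in Eμ-xbp-1s B cells and 72.1 to 343 in MM, and rose by 1.19 between the B cell groups (limma, adjusted p = 0.00157), a test it entered only through the transgenic arrays. In MM over nontransgenic B cells 2 of 13 rose, Jdp2 and the stress factor Atf5 (1.14, adjusted p = 0.00844), and 1 fell, Creb1 (-1.03, adjusted p = 0.00401), and in MM over Eμ-xbp-1s B cells Jdp2 was the 1 of 13 that passed. Of all genes tested 4.66% rose and 4.76% fell in the former comparison, and 1.49% and 1.67% in the latter. Atf5 entered its test only through the MM arrays.

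Other immediate early genes mostly did not pass between the B cell groups. Of 30 tested between the B cell groups, 1 rose and 0 fell, with a median of -0.04, against 3.28% and 0.192% of all genes tested. The 1 was Rgs1, a brake on chemokine signalling, which went from 102 to 168 up to 199 to 425 (log2 fold change 1.23, limma adjusted p = 0.00390). Egr1 and Nr4a1, which respond to the same stimuli as Fos, overlapped between these groups. Egr1 was 294 to 814 in nontransgenic B cells and 322 to 506 in Eμ-xbp-1s B cells, and Nr4a1 was 600.4 to 793 and 707 to 1208. Egr3 (503 to 571 and 146 to 460), Zfp36 (1934 to 2690 and 429 to 1644) and Zfp36l1 (2604 to 2816 and 1364 to 2223) did not overlap. They were lower with the transgene and did not pass (limma, adjusted p = 0.176, 0.0617 and 0.0216), whereas Rgs1 was higher without overlap.

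Of 33 immediate early genes tested in MM over nontransgenic B cells, 7 fell and 1 rose, with a median of -0.21, where 4.76% of all genes tested fell and 4.66% rose. Egr3, a zinc finger factor of antigen receptor signalling, went from 503 to 571 down to 24.0 to 90.7 and fell by 3.24 (limma, adjusted p = 7.02e-07), a lower bound in size because 4 of the 6 MM samples lay under the floor, and it entered both tests of MM only through the B cell arrays. Falls were also seen in Ier5 (-2.22), in Zfp36 (-2.18), which destabilises cytokine mRNA, and in Klf2 (-1.86), a factor of lymphocyte quiescence (limma, adjusted p = 0.00280, 0.000722 and 0.00409). Rgs1 was the gene that rose (1.97, adjusted p = 0.00893). In MM over Eμ-xbp-1s B cells 1 of 32 passed, Egr3, which fell by 2.57 (adjusted p = 0.000496), and the median was -0.29. Of all genes tested in that comparison 1.67% fell. The falls ran beside the mature B cell markers, whose sum was 35659.5 to 38674 in nontransgenic B cells, 14891 to 30274 in Eμ-xbp-1s B cells and 799.1 to 15702 in MM, and their part in these values was not tested.

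**Figure D4:**
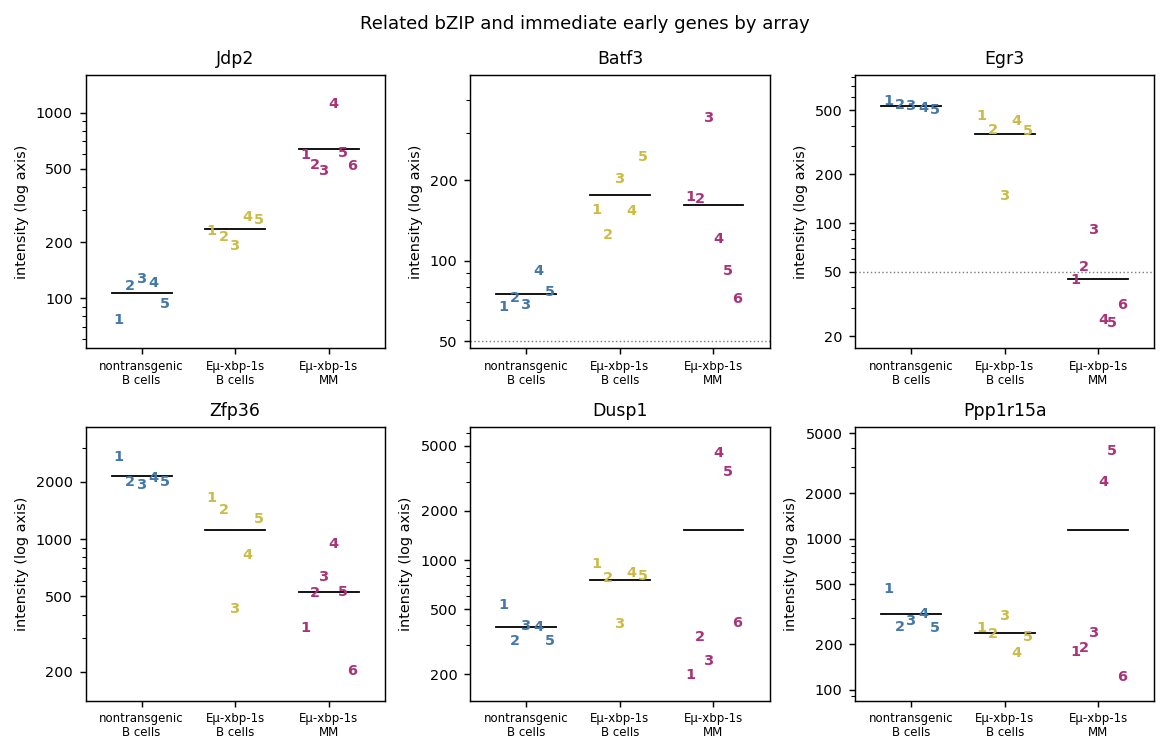
Intensity (log axis) of Jdp2, Batf3, Egr3, Zfp36, Dusp1 and Ppp1r15a on each array. Digits are replicate numbers, black lines group means, and the dotted line the floor of 50 where it is in range. Jdp2 separates all 3 groups, Egr3 is lowest in MM, and Dusp1 and Ppp1r15a are high in MM replicates 4 and 5, at 4518 and 3477 and at 2361 and 3794.

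Heat shock genes, which are induced with Fos and Jun while tissue is handled, did not pass in any comparison. Of 9 tested in each, 0 rose and 0 fell, and their summed intensity was 10156 to 15038 in nontransgenic B cells, 10541 to 13664 in Eμ-xbp-1s B cells and 9582 to 17091 in MM. Hspa1b was 628 and 471 in nontransgenic replicates 1 and 2 and 146 to 176 in replicates 3 to 5. It was 1995 in MM replicate 5 and 155 to 441 in the other MM samples. Handling of the samples was not tested as a source of any value given here.

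Of the MAP kinase cascade that raises AP-1 activity, 0 of 12 genes tested passed between the B cell groups. Map3k1, a kinase at its head, was the 1 of 12 that passed in each comparison of MM. Of all genes tested 1.67% fell in MM over Eμ-xbp-1s B cells and 4.76% over nontransgenic B cells. Map3k1 was 1516 to 1971 in nontransgenic B cells, 1086 to 1869 in Eμ-xbp-1s B cells and 408 to 865 in MM, a fall of 1.34 against Eμ-xbp-1s and of 1.55 against nontransgenic B cells (limma, adjusted p = 0.00407 and 0.000327). Of the serum response and ternary complex factors 0 of 6 passed in any comparison. Of the MAP kinase phosphatases, which switch the cascade off, Dusp5 rose in MM over nontransgenic B cells (1.29, adjusted p = 0.00204), as the 1 of 7 tested, against 4.66% of all genes tested. It was 55.9 to 104 in nontransgenic B cells and 125 to 277 in MM, so it met the filter mainly through the MM arrays. In the other comparisons 0 of 6 phosphatases passed.

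Among genes known as AP-1 targets, 8 were tested between the B cell groups, where 3.28% of all genes tested rose. Of the 8, 1 rose, the metallothionein gene Mt1 (1.86, limma adjusted p = 0.00417), with a list median of 0.76. Its intensity was 71.1 to 109 in nontransgenic B cells, 200.2 to 754 in Eμ-xbp-1s B cells and 323 to 8065 in MM, highest in replicates 4 and 5. Against nontransgenic B cells Mt1 met the filter mainly through the other group, where it was high. In MM over nontransgenic B cells 4 of 12 rose and 0 fell, namely Mt1 (4.02), the gap junction gene Gja1 (at least 2.29), the chemokine gene Ccl2 (0.92) and Vim (0.60), which encodes vimentin (limma, adjusted p = 0.00296, 0.00453, 0.00225 and 0.00592). In MM over Eμ-xbp-1s B cells 1 of 12 rose, Gja1 (at least 2.29, adjusted p = 0.00918). Of all genes tested 4.66% rose in MM over nontransgenic B cells and 1.49% over Eμ-xbp-1s B cells. Gja1 and Ccl2 entered these tests only through the MM arrays. Gja1 and vimentin are abundant in connective tissue, and the summed intensity of 10 stroma and bone markers was 409.1 to 592.6 in nontransgenic B cells, 420.2 to 572.9 in Eμ-xbp-1s B cells and 5256 to 12876 in MM. The part of that tissue in these values was not tested.

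Of 6 genes whose products act beside BATF, 1 passed, in a single comparison. Irf4, which binds DNA beside BATF and JUN, was 791 to 1032 in nontransgenic B cells, 357 to 919 in Eμ-xbp-1s B cells and 53.5 to 307 in MM. It fell by 2.19 in MM over nontransgenic B cells (limma, adjusted p = 0.00260) and was the gene that passed. Of all genes tested in that comparison 4.76% fell. Irf8 was 1889 to 2640.1 in nontransgenic B cells and 1091 to 2209.6 in Eμ-xbp-1s B cells. In MM it was 2576 to 3475 in replicates 1 to 3 and 172 to 762 in replicates 4 to 6.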

How the data were processed

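Expression was measured on Affymetrix 430 2.0 mouse arrays, and the sample labels gave groups and replicate numbers. The deposited values are 1 linear-scale intensity per probe set and array, which the authors obtained from dChip's expression model, on perfect match minus mismatch signals, after normalizing every array to a baseline array of median overall intensity, so that low values are uncertain. The lowest value is 1, at which 0.764% of values stand. With 64 controls left out, 34945 of 45037 probe sets have 1 gene in the platform annotation, 932 have several, and the rest are not named. The brightest probe set by mean over 16 arrays stands for a gene, and the others are given beside it.

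Each pair of groups was fitted on its own with limma 3.58.1 (lmFit, eBayes) in R 4.3.3 on log2 values with a floor of 50, for probe sets exceeding 100 on over 20% of the arrays in the comparison, with Benjamini-Hochberg adjustment over all probe sets tested and a threshold of 0.01. The intensity filter and threshold follow the study's methods. Its filter on the standard deviation, its SAM test and its presence calls were not used here. The fit was tested on simulated data. Motifs were searched in RefSeq promoter windows with Python 3.11.15. Genes named are the 8 members, up to 4 genes past the test from each list, the genes nearest to Fos and Jun by correlation, and a few named after their values were seen (Egr1, Nr4a1, Zfp36l1, Hspa1b, Irf8, Ppp1r15a, Dusp1). The members and gene lists were chosen with earlier results of these data known.

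The same replicate numbers recur in every group. Deviations from the group means were correlated between B cell arrays of the same number. The correlations over probe sets were 0.512, 0.527, 0.218, 0.176 and 0.512 for replicates 1 to 5. Of the Eμ-xbp-1s arrays, only replicates 2 and 3 correlated best with the nontransgenic array of their own number. No source ties a number to a litter or day, so the main fits used no pairs, and a replicate block was an alternative. Alternatives were floors of 16 and 100, no filter, quantile normalization, median scaling, a single fit of the 3 groups, array weights, the replicate block, an adjusted p under 0.05, averaged probe sets per gene and leaving out arrays.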

Additional observations from a re-analysis of the deposited data

Results flagged for a closer look

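Of 33 combinations of a probe set and a group, 3 held a sample whose gap to its nearest neighbour was unusually wide for the range of its group, and chance alone gives such a gap in about 1 group of 20. For Fos, nontransgenic replicate 2 was lowest at 264, with the nearest array at 1097. For Jun 1448694_at, Eμ-xbp-1s B cell replicate 4 was lowest at 177, with the nearest at 396. For Junb, MM replicate 6 was lowest at 169, with the nearest at 557.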

How the results depend on the processing

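Over all tests of the 8 genes, 507 repeats kept their direction and side of the threshold, 18 newly passed, 3 no longer passed and 45 changed sign. No repeat of MM over Eμ-xbp-1s B cells called any of the genes by its brightest probe set. Between the B cell groups, the 1 gene that rose became 0 with a floor of 100 and in a single fit of the 3 groups and 2 without replicates 3 to 5 of both groups, a split chosen after seeing the data. The 0 that fell became 2 with array weights and 1 at an adjusted p under 0.05, with averaged probe sets per gene, without replicates 1 and 2 and without replicates 3 to 5 of both groups, and leaving out single arrays gave 0 to 2. In MM over nontransgenic B cells, the 0 that rose became 1 with a floor of 16 and 1 without MM replicates 1 to 3. The 0 that fell became 1 with array weights, at an adjusted p under 0.05 and without MM replicates 4 and 5, and leaving out single arrays gave 0 to 1. With the replicate block the count between the B cell groups stayed at 1 gene that rose and 0 that fell, and no call of the 8 genes changed. Deviations of MM and B cell arrays with the same number correlated between -0.28 and 0.44. The cause of these changes was not tested.

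The changes of sign concerned log2 fold changes that had not passed. Between the B cell groups they were Fosl2 1422931_at with array weights (0.0125), Batf without replicates 1 and 2 (-0.0853), and, without replicates 3 to 5, Fosl2 1422931_at (0.16), Jun 1448694_at (0.00828) and Junb (0.25). In MM over Eμ-xbp-1s B cells they were, with quantile normalization, Junb (0.0428) and Batf (0.0497), and with array weights, Fosl2 1437247_at (-0.12), Jun 1448694_at (-0.51), Junb (0.0480), Jund (-0.0673) and Batf (0.0687). The replicate block turned Junb (0.26) and Batf (0.12), and leaving out MM replicates 4 and 5 turned Fosl2 1437247_at (-0.57), Jun 1448694_at (-0.26), Jund (-0.23) and Batf (0.16). Without MM replicates 1 to 3, Fos was at 0.94. In MM over nontransgenic B cells, quantile normalization turned Jun 1448694_at (0.0702), the replicate block Junb (0.0425) and Jund (0.0569), and leaving out MM replicates 1 to 3 turned Jun 1448694_at (0.64), Jund (0.23) and Batf (-0.20). With single arrays left out, Jun 1448694_at ran from -0.28 to 0.0394 between the B cell groups. In MM over Eμ-xbp-1s B cells, Junb ran from -0.21 to 0.26, Batf from -0.26 to 0.12, Jun 1448694_at from -0.0698 to 0.35, Fos from -0.80 to 0.10 and Fosl2 1437247_at from -0.0825 to 0.60. In MM over nontransgenic B cells, Jun 1448694_at ran from -0.21 to 0.14, Jund from -0.25 to 0.0569 and Junb from -0.42 to 0.0425. With median scaling the median log2 fold change of all probe sets was -0.14 in MM over nontransgenic B cells, against -0.03 without it. Median scaling changed the calls over all probe sets from 285 higher and 423 lower to 240 and 762 in MM over Eμ-xbp-1s B cells, and from 864 and 1236 to 689 and 2079 in MM over nontransgenic B cells. Over the alternatives that count probe sets these calls ran from 98 to 2224 higher and 120 to 2314 lower, and from 415 to 3060 and 640 to 4121, while the 567 higher and 99 lower between the B cell groups ran from 199 to 1329 and 18 to 580. Signals near the floor limit what can be said of Atf3, of Jund 1440265_at and of Fosl2 1437247_at in nontransgenic B cells.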
